A study of Mus musculus with 8 samples.

Results

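The Hox genes of the mouse were examined in the hippocampus of aged mice that differ in memory. They were taken as all genes whose symbol in the probe table of the array is Hox, a cluster letter from a to d and a number, with no requirement on their signal, which gave 33 genes of the 19505 named genes. Each had 1 probe set. RefSeq (GRCm38.p6) lists 39 such symbols, and the other 6 were not analysed here. The study compared hippocampal RNA of 4 mice with impaired memory and 4 with intact memory, 1 array per mouse. All 8 mice were B6.Cg-Tg(APPswe)E1-2Dbo/J, a line with a transgene for an amyloid precursor protein carrying a familial Alzheimer mutation. They were 18 to 20 months old and were killed after the Morris water maze, a test of spatial memory. No mice without the transgene and no other tissue were compared, so the Hox values have no sample in which these genes are known to be expressed beside them.

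Hox genes encode homeodomain transcription factors that give cells of the embryo their position along the axis from head to tail. They lie in 4 clusters, and the order of genes in a cluster, from paralog group 1 to group 13, follows the order in which they are used along the axis. In the nervous system they are used in the hindbrain and spinal cord, and the forebrain, from which the hippocampus forms, lies in front of the territory in which they are switched on. Outside their territory they are a textbook target of Polycomb complexes, which mark and compact silent chromatin, while trithorax complexes keep them active within it and retinoic acid switches on the genes at the anterior end of a cluster.

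CpG-rich start regions are the sequence feature by which Polycomb complexes are known to find many of their targets. RefSeq start regions (300 bases, from 250 before to 50 after a start) were at hand for 17 of the 33 genes, in 19 windows. They held 4 to 45 CpG dinucleotides with a median of 20, and a median of 60.3% G and C. Over all 32851 windows of the same length the medians were 7 CpG and 52.7% G and C. At least 20 CpG were found in 10 of the 19 Hox windows (52.6%), and in 26.5% of all windows. The 250 bases before the start are shown for 3 genes, 5′ to 3′ on the strand of the gene, in GRCm38.p6, with CpG in capitals. Hoxd11 is shown because its groups of mice did not overlap, Hoxa13 because it had the most CpG of the 19 windows, and Hoxa2 as an anterior gene with few.
Hoxd11, outer start (chr2:74679308-74679557, plus strand): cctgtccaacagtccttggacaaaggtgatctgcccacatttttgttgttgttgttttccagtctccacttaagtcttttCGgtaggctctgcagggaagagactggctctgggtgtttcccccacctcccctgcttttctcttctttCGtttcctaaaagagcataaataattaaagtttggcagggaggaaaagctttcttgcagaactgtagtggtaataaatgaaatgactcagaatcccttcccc
Hoxd11, inner start (chr2:74682073-74682322, plus strand): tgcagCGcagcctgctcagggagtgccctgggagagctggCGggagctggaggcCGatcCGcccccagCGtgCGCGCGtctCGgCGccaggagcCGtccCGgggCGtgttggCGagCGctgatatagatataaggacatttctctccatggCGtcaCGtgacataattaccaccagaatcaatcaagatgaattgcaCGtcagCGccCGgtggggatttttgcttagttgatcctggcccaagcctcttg
Hoxa13 (chr6:52260881-52261130, minus strand): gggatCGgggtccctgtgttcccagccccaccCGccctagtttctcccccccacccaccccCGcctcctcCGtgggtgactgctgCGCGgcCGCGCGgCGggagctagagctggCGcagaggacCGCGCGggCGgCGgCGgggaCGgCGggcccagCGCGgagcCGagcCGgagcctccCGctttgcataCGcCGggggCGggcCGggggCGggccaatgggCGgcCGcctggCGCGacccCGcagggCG
Hoxa2 (chr6:52164832-52165081, minus strand): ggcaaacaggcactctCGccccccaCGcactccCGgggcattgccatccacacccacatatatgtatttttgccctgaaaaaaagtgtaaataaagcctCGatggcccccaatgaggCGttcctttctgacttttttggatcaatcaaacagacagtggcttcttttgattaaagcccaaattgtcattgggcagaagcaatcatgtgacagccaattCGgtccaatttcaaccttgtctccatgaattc
The 2 starts of Hoxd11 differed widely, with 2 CpG before the outer and 20 before the inner, against 35 for Hoxa13 and 6 for Hoxa2. The letters TGATNNAT, a composite site of Pbx and Hox proteins, were found on either strand in 4 Hox windows, those of Hoxa2, Hoxb1, Hoxb8 and the inner start of Hoxd11 (21.1% of 19, against 8.8% of all windows). AGGTCA, a half-site of retinoic acid receptors, was found in 4 (21.1%, against 16.3%), those of Hoxa5, Hoxc4, Hoxd8 and Hoxd10, and GAGAG in 13 (68.4%, against 62.0%). Both strands were searched for each. A match describes the letters only.

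All values are log2 signals from robust multi-array averaging (RMA), a summary of the probes of a gene, so that a difference of 1 is a doubling. Across genes the correlation of a pair of arrays was 0.987 to 0.992, and the array medians over genes were 7.02 to 7.05. Neither value can show that the arrays were alike. RMA normalizes arrays by quantiles, which brings their medians together, and the correlation carries the differences in level between genes. Of 13 markers of hippocampal neurons, 12 were above the 75th percentile of the introns on all 8 arrays, against 55.9% of all genes. Among them were Neurod6 at 10.40 to 11.17 and Prox1, the factor of dentate granule cells, at a mean of 9.76. Thalamus markers passed that level in 10 of 11 cases and endothelial markers in 9 of 10. Passing it therefore does not by itself tell hippocampus from other tissue. Markers of bordering tissue varied between mice. Choroid plexus markers had lower means in the impaired mice for 13 of 13 genes and thalamus markers higher means for 11 of 11, with 0 of either called (limma, adjusted p under 0.05). The thalamus direction rested on intact mouse 3: without it 1 of 11 was higher and 10 were lower, and the median difference went from 0.29 to -0.076. For the plexus markers the median of -0.52 was -0.21 without impaired mouse 3, -0.25 without intact mouse 1 and -0.90 without intact mouse 3. The mean level of the 13 choroid plexus markers ran from 6.54 to 7.70 in the impaired and from 6.53 to 8.37 in the intact mice, and that of 11 thalamus markers from 9.02 to 9.65 and from 7.74 to 9.67. Of 10 meningeal markers 8 were higher and 2 lower, and of 10 endothelial markers 2 were higher and 8 lower. Among the markers picked by the same rule in each list, Kl, F5, Ttr and Kcnj13 of the plexus differed by -0.66, -0.75, -0.65 and -0.61. In the thalamus list Shox2, Tcf7l2 and Prkcd differed by 0.79, 0.51 and 0.44, and in the meningeal list Slc22a6, Slc6a13 and Dcn by 0.50, 0.32 and 0.12. Tek, Cdh5, Ly6c1 and Slc2a1 of endothelium differed by -0.41, -0.20, 0.055 and 0.015. The hippocampal markers Wfs1, Grik4, Mpped1 and Neurod6 differed by 0.25, -0.27, 0.16 and 0.036. Of the 13 hippocampal markers 7 were higher and 6 lower, with a median difference of 0.014. All 4 impaired values of Wfs1 were above all 4 intact values, as for 1.47% of all genes. The difference did not pass adjustment (limma, adjusted p = 0.963). In whole tissue, fewer cells of a type and less RNA per cell cannot be told apart.

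No Hox gene stood clear of the background of the array. The background can be read from 23 antigenomic rows, whose probes match no mouse sequence and are grouped by their number of G and C bases, and from 5222 rows for introns. The antigenomic rows rose steeply with base composition, from a mean of 2.22 over the arrays at 3 G and C bases to 8.16 at 23, after which they fell to 7.49 at 25. The mean of every Hox gene lay inside that range, between Hoxb9 at 3.17 and Hoxc9 at 6.94, which fall just above the antigenomic rows with 12 and with 18 G and C bases. No source used here gives the base composition of the Hox probes, so it is not known which antigenomic row is the right background for a given Hox gene. Nor can levels of different Hox genes be ranked as expression, since probe sets differ in affinity.

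**Figure D1:**
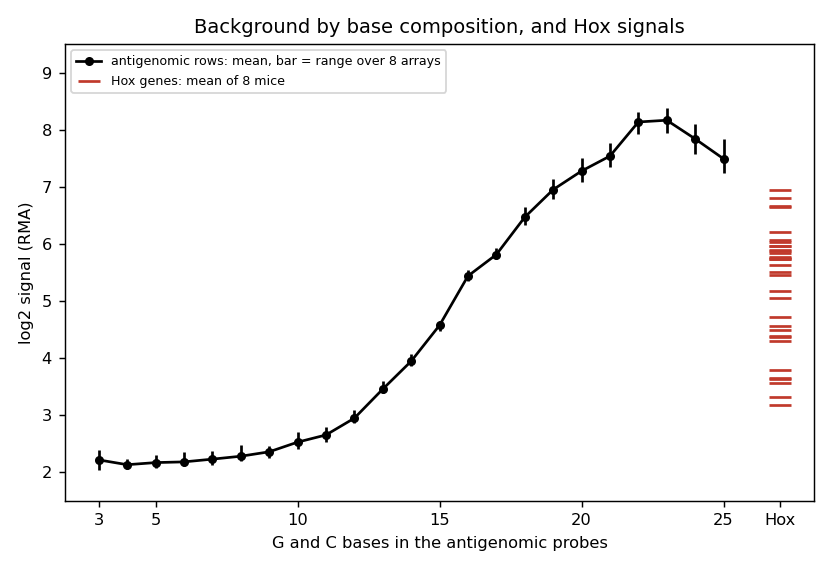
Log2 signal (y axis) of the 23 antigenomic rows by the number of G and C bases in their probes (x axis); points are means and bars the range over 8 arrays. Red dashes at the right are the means of the 33 Hox genes, which span 3.17 to 6.94, inside the range of the antigenomic rows.

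Set against the brightest antigenomic row of each array, which stood at 7.94 to 8.38, 0 of 33 Hox genes were above it on all 8 arrays, and none was above it on any array. Of all named genes 24.7% were above it on all 8. The 95th percentile of the introns, at 7.95 to 8.01, was also passed by 0 Hox genes on any array, and by 29.4% of all genes on all 8. A lower bar, the 75th percentile of the introns at 6.30 to 6.39, was passed on all 8 arrays by Hoxb2, Hoxb3 and Hoxc9, 3 of 33 (9.09%), against 55.9% of all genes. Hoxb7 passed it on 7 arrays, and Hoxa13, Hoxb1, Hoxb8 and Hoxd12 on 1 each. The median antigenomic row, at 3.85 to 4.06, was passed on all 8 arrays by 27 of 33. The other 6 were Hoxa3, Hoxb9, Hoxb13, Hoxc11, Hoxd10 and Hoxd11. A Hox transcript at a low level and no transcript cannot be told apart from these signals.

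**Figure D2:**
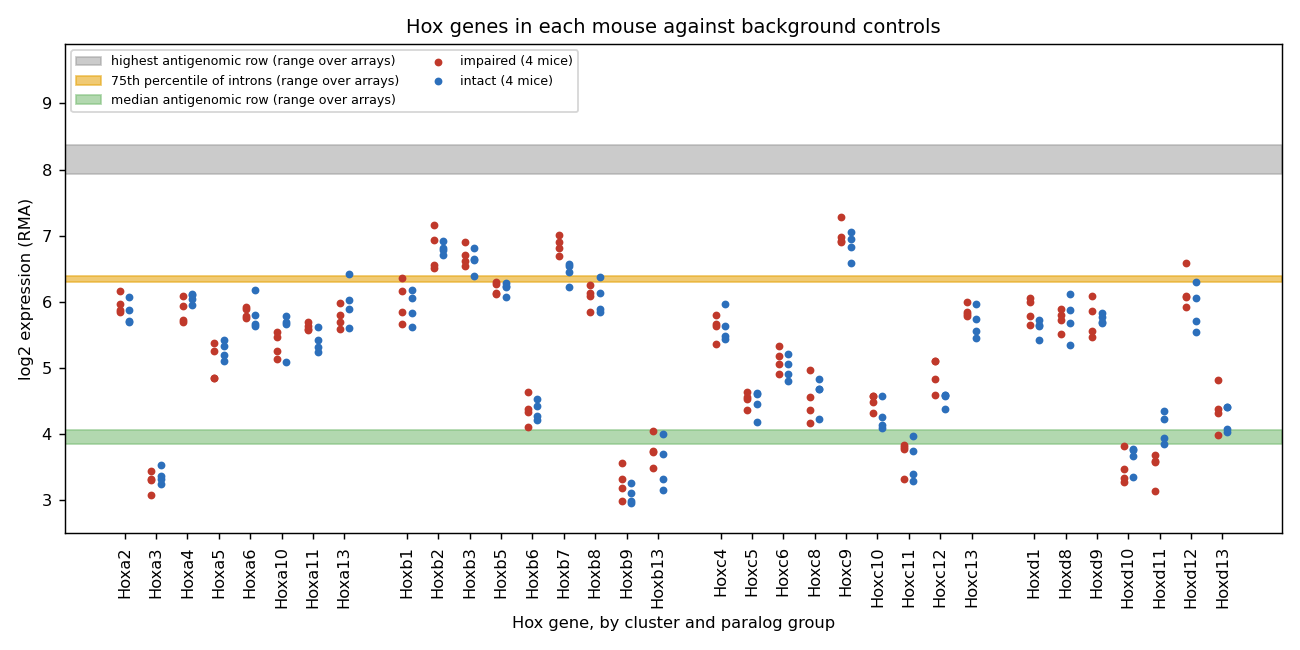
Log2 expression (y axis) of the 33 Hox genes (x axis, by cluster and paralog group) in each mouse; red points are the 4 impaired and blue points the 4 intact mice. Bands give the range over arrays of the brightest antigenomic row (7.94 to 8.38), the 75th percentile of introns (6.30 to 6.39) and the median antigenomic row (3.85 to 4.06); no point reaches the uppermost band.

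In the anterior paralog groups 1 to 3, which pattern the hindbrain and the branchial arches, 6 genes were measured, with means of 3.33 to 6.80. Hoxb2, a hindbrain gene, had values of 6.93, 6.56, 6.51 and 7.16 in impaired mice 1 to 4 and of 6.79, 6.82, 6.92 and 6.70 in intact mice 1 to 4. The impaired mice held both the highest and the lowest values, and the groups overlapped (6.79 ± 0.31 against 6.81 ± 0.090, SD, n = 4 each). Hoxb3 had values of 6.90, 6.54, 6.62 and 6.72 in the impaired and 6.38, 6.64, 6.65 and 6.81 in the intact mice, which overlap as well. Hoxa3, needed for the thymus and parathyroid, was at the other end. Its values were 3.31, 3.32, 3.08 and 3.44 in the impaired and 3.32, 3.36, 3.53 and 3.25 in the intact mice, below the median antigenomic row on every array. Hoxb1, which sets the identity of a single hindbrain segment, ran from 5.62 to 6.36, and Hoxa2, which patterns the branchial arch behind the jaw, from 5.69 to 6.16. Hoxd1, another anterior gene, had values of 6.05, 5.64, 5.997 and 5.79 in the impaired and of 5.73, 5.42, 5.64 and 5.66 in the intact mice. Its groups overlapped through impaired mouse 2, and the difference of 0.26 (standard error 0.12) did not pass (limma, adjusted p = 0.963).

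In the central groups 4 to 8, used in the lower hindbrain, neck and upper trunk, 12 genes had means of 4.36 to 6.65. Hoxb7 had the largest positive difference of all 33. Its values were 6.90, 6.70, 6.82 and 7.01 in the impaired mice and 6.23, 6.45, 6.55 and 6.57 in the intact mice. Every impaired value was above every intact one, with means of 6.86 ± 0.13 and 6.45 ± 0.15 (SD, n = 4 each). On the log2 scale the groups differed by 0.41 (standard error 0.11; limma, unadjusted p = 0.00311). This did not pass adjustment over 19505 genes (adjusted p = 0.881, and 0.640 to 1.00 over the other settings). Of its neighbours in the cluster, Hoxb6, Hoxb8 and Hoxb5 differed by 0.0028, 0.019 and -0.0046, with standard errors of 0.12, 0.14 and 0.088. Hoxb9 differed by 0.18 (standard error 0.13). The groups overlapped for each of these neighbours.

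Hoxb5 was the steadiest of the 33, with values of 6.29, 6.13, 6.27 and 6.12 in the impaired and 6.07, 6.29, 6.23 and 6.24 in the intact mice, a range of 0.22 in all. The 95% interval of its difference ran from -0.20 to 0.19. Hoxb8, which is active in the lineage of a subset of microglia and whose loss makes mice groom to excess, had values of 6.09, 6.25, 5.85 and 6.13 in the impaired and 6.13, 5.84, 6.37 and 5.89 in the intact mice. Both groups spanned nearly the same range, and the interval of the difference was -0.28 to 0.32. Hoxa4 was 5.69, 5.72, 5.94 and 6.09 in the impaired and 6.13, 6.10, 6.05 and 5.96 in the intact mice. Only impaired mouse 4 was within the intact range, and the difference of -0.20 (standard error 0.11) did not pass (limma, adjusted p = 0.963). Hoxa5, which is needed for the airways, was 4.84, 5.25, 5.38 and 4.84 in the impaired and 5.11, 5.20, 5.42 and 5.33 in the intact mice, low in impaired mice 1 and 4.

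In the posterior groups 9 to 13, used in the lower trunk, limbs, tail and urogenital tract, 15 genes had means of 3.17 to 6.94. Hoxc9, which gives thoracic motor neurons their identity, had values of 6.92, 6.98, 6.90 and 7.29 in the impaired and 6.95, 7.06, 6.82 and 6.58 in the intact mice. Impaired mouse 4 was highest and intact mouse 4 lowest, and the other 6 values were mixed (difference 0.17, standard error 0.13). The difference was 0.082 without the former and 0.081 without the latter. Hoxb9 had the lowest mean, with 3.56, 2.99, 3.32 and 3.18 in the impaired and 3.11, 2.96, 3.26 and 2.99 in the intact mice. Hoxd10, a gene of lumbar motor neurons, was 3.28, 3.82, 3.34 and 3.47 in the impaired and 3.35, 3.78, 3.76 and 3.67 in the intact mice. Both lay below the median antigenomic row on every array.

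Hoxd11, which acts with Hoxa11 in the forearm and kidney, had the largest difference of the 33 in size. It was 3.58, 3.68, 3.14 and 3.59 in the impaired mice and 3.86, 4.23, 3.94 and 4.35 in the intact mice. All 4 impaired values lay below all 4 intact values, with means of 3.50 ± 0.24 and 4.09 ± 0.23 (SD, n = 4 each). The groups differed by -0.59 on the log2 scale (standard error 0.15; limma, unadjusted p = 0.00250). This did not pass adjustment (adjusted p = 0.881, and 0.608 to 1.00 over the other settings). This gene was above the median antigenomic row on 3 of 8 arrays only. Hoxa11 itself was 5.58, 5.60, 5.70 and 5.64 in the impaired and 5.43, 5.62, 5.24 and 5.31 in the intact mice, and thus differed in the opposite direction, by 0.23 (standard error 0.099), with intact mouse 2 inside the impaired range (limma, adjusted p = 0.963).

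Hoxc12 was 4.83, 5.11, 5.11 and 4.59 in the impaired and 4.38, 4.57, 4.59 and 4.58 in the intact mice. Impaired mice 1, 2 and 3 were above all intact mice, and impaired mouse 4 was within their range (difference 0.37, standard error 0.13; limma, adjusted p = 0.963). Hoxa13, a gene of the hand and foot plate, was 5.59, 5.81, 5.70 and 5.98 in the impaired and 6.02, 6.42, 5.90 and 5.60 in the intact mice, with a high value in intact mouse 2 (difference -0.22, standard error 0.16). Without that mouse the difference was -0.070. Within the Hoxd cluster, Hoxd10 differed by -0.16 and Hoxd12 by 0.26 (standard errors 0.14 and 0.19), and both 95% intervals included 0. Leaving out single mice moved Hoxd10 between -0.28 and -0.098, and Hoxd12 was 0.12 without impaired mouse 4.

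Of the 33 Hox genes 0 passed an adjusted p of 0.05 (limma), as was the case over all 19505 genes (0%). At an unadjusted p under 0.05 there were 5 Hox genes, namely Hoxb7, Hoxc12, Hoxa11 and Hoxd1 with higher and Hoxd11 with lower values in the impaired mice. That is 15.2% of 33, against 4.94% of all genes (4 higher, against 2.74% of all genes, and 1 lower, against 2.19%). It was 3 without impaired mouse 1 and 3 without impaired mouse 3, where the count over all genes went from 963 to 818 and 802. Higher values in the impaired mice were found for 20 and lower values for 13, with a median difference of 0.057, against -0.0013 over all genes. The median was 0.015 without intact mouse 4. With each array centred on its median antigenomic row the split was 17 higher and 16 lower, with a median of 0.0074, and the share of all genes with higher values went from 49.6% to 35.0%. This centring shifts the difference of every gene by the same amount, and the median over all genes was then -0.050.

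The groups did not overlap for Hoxb7 and Hoxd11, 2 of 33 (6.06%), against 2.76% of all genes, of which 1.47% were higher and 1.29% lower. With 3 mice in a group such genes are commoner: without impaired mouse 4 there were 4 Hox genes, and 1415 of all 19505. Without intact mouse 2 there were also 4, and 1068 of all genes, and without intact mouse 3 again 4, and 1132 of all genes. Rows for introns serve as a background for this count too: 145 of 5222 (2.78%) did not overlap between the groups. The antigenomic rows themselves varied between mice. Their mean deviation from the average over mice was 0.090, -0.094, 0.17 and -0.066 in impaired mice 1 to 4 and -0.059, -0.081, 0.062 and -0.017 in intact mice 1 to 4. With arrays centred on the antigenomic median, Hoxb7 differed by 0.36 and Hoxd11 by -0.64. With the plexus score as a covariate they differed by 0.39 and -0.53.

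**Figure D3:**
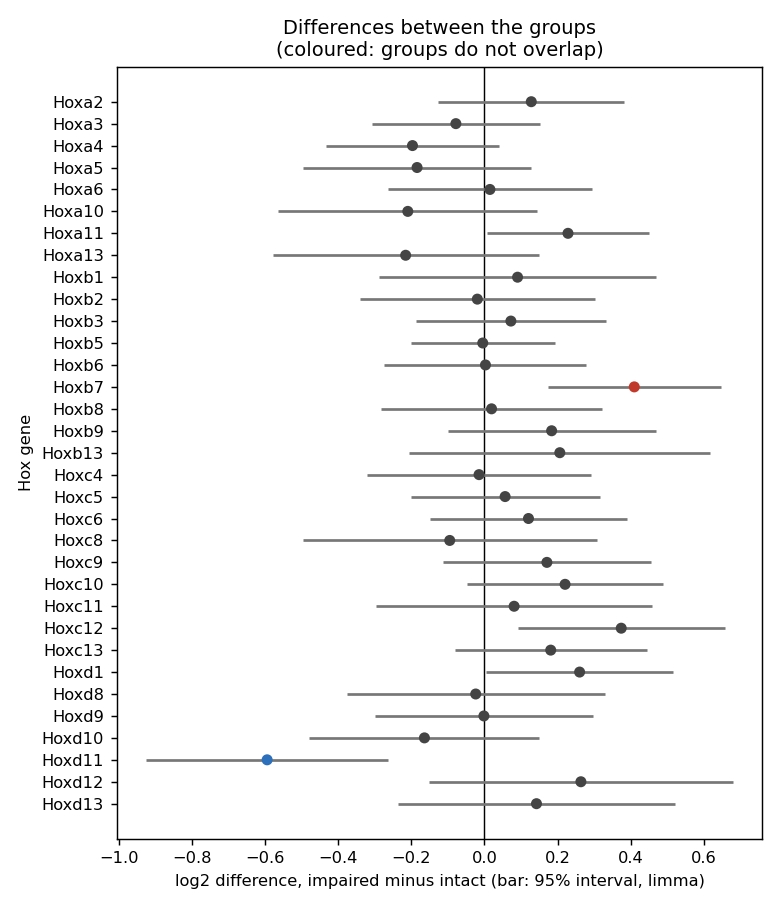
Log2 difference, impaired minus intact (x axis), of each of the 33 Hox genes (y axis); points are estimates and bars 95% intervals from limma. The red point, Hoxb7 at 0.41, and the blue point, Hoxd11 at -0.59, are the genes whose groups did not overlap.

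Both directions were found within each cluster. Higher values in the impaired mice were found for 3 of 8 Hoxa genes, 7 of 9 Hoxb genes, 7 of 9 Hoxc genes and 3 of 7 Hoxd genes, with median differences of -0.13, 0.072, 0.12 and -0.0014. Of all genes 49.6% were higher. Whether the genes of a cluster move together cannot be judged from signals that are not clear of the background. By position, 4 of 6 anterior, 6 of 12 central and 10 of 15 posterior genes were higher. Over the 8 mice, the median Pearson correlation of 121 pairs of Hox genes of the same cluster was 0.064 (quartiles -0.21 and 0.34). It was -0.028 for 407 pairs from different clusters, 0.038 for 29 pairs of the same paralog group and 0.0030 for all pairs of named genes. These values describe 8 arrays, and all pairs share the same arrays and their background. Between mice a Hox gene ranged over 0.61 at the median, from 0.22 for Hoxb5 to 1.21 for Hoxd11, against 0.52 for all genes, 1.12 for intron rows and 0.26 for antigenomic rows.

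Genes that lie beside or resemble the Hox clusters also gave dim signals. Of 19 genes listed as Evx genes or noncoding genes of the clusters, 4 were measured. Evx1 and Evx2, homeobox genes at the ends of clusters, ran from 6.28 to 6.54 and from 5.96 to 6.46, Hoxa11os from 4.63 to 5.06 and Hoxd3os1 from 2.67 to 3.08. None of the 4 passed the 75th percentile of the introns on all 8 arrays. Evx1 fell below it in impaired mouse 1 only, at 6.28 against 6.37. Hoxa11os is antisense to Hoxa11, and which strand the probes of either read was not tested. Of 6 ParaHox genes, the sister family used in gut and brain, Cdx1 alone passed that level on all 8 arrays, at 7.22 to 7.50. Gsx2 had lower values (-0.41, standard error 0.18) and Cdx4 higher values (0.25, standard error 0.090) in the impaired mice, both without passing adjustment (limma, adjusted p = 0.963 each). The groups did not overlap for Cdx4, and they overlapped for Gsx2. Pdx1, a pancreatic factor, differed by 0.072.

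Markers of neurons of the hindbrain and spinal cord, where Hox genes are used, gave mostly dim signals. Of 12 measured, 3 passed the 75th percentile of the introns on all 8 arrays, against 55.9% of all genes. The brightest antigenomic row was passed by 0, against 24.7% of all genes. Whether the cell type of each marker expresses Hox genes was not tested. The mean level of the list was 5.67 to 5.82 in the impaired and 5.52 to 5.86 in the intact mice. Chat, the enzyme that makes acetylcholine in motor neurons, stood at 2.99 to 3.93. Slc6a2, the noradrenaline transporter, stood at 4.17 to 4.26 in the impaired and at 4.33 to 4.69 in the intact mice, without overlap but without passing adjustment (-0.23, standard error 0.099; limma, adjusted p = 0.963). Tph2, the enzyme of serotonin neurons, differed by 0.61 (standard error 0.25) and Slc6a5, the glycine transporter, by 0.40 (standard error 0.14), neither past adjustment (limma, adjusted p = 0.963 each). Egr2, which is also induced by activity in forebrain neurons, stood at 7.69 to 8.90, and Lmx1b at 7.61 to 8.18. Of the 12 genes 4 were higher and 8 lower in the impaired mice, with a median difference of -0.057, which was 0.064 without intact mouse 2 and 0.044 without intact mouse 4. Blood cell markers, a list fixed because blood cells use Hox genes, passed the introns' level in 3 of 11 cases, against 55.9% of all genes. The brightest antigenomic row was passed on all 8 arrays by 1 of the 11, Kit, at a mean of 9.66. Which cells gave the Kit signal was not tested. Of the 11, 4 were higher and 7 lower, with a median difference of -0.023 that was 0.016 without intact mouse 2. Gata1, an erythroid factor, differed by -0.25 (standard error 0.10) and Kit by -0.023, and Alas2, the haem enzyme of red cells, had lower values in all 4 impaired than in all 4 intact mice without passing adjustment (-0.41, standard error 0.12; limma, adjusted p = 0.947). The part of these cells in the Hox values was not tested.

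Genes that act on or with Hox genes passed the lower bar of the introns more often than the Hox genes did. That bar was passed on all 8 arrays by 55.9% of all genes, so this alone does not set the lists apart. Many stayed below the brightest antigenomic row, which 24.7% of all genes passed on all 8 arrays. The share above that row was smaller for TALE cofactors (1 of 10) and retinoic acid genes (1 of 15). It was larger for genes of Polycomb repressive complex 1 (5 of 16) and trithorax genes (3 of 8). In Polycomb repressive complex 2, which methylates histone H3 at silent genes, 10 of 11 genes passed the 75th percentile of the introns on all 8 arrays and 6 passed the brightest antigenomic row, among them Rbbp7 and Aebp2 with means of 10.39 and 10.08. Of these 11, 7 had higher and 4 lower values in the impaired mice, with a median difference of 0.039. Suz12, a core subunit, stood at 8.97 ± 0.096 in the impaired and 9.25 ± 0.068 in the intact mice (SD, n = 4 each), and Mtf2, which links the complex to CpG-rich DNA, at 8.34 ± 0.071 and 8.55 ± 0.14. The groups did not overlap for either, and neither difference passed (-0.28 and -0.21, standard errors 0.086 and 0.095; limma, adjusted p = 0.963 each). In Polycomb repressive complex 1, 14 of 16 genes passed the level of the introns, among them Yaf2 and Phc2 at 9.62 and 9.10. Bmi1, a ring-finger subunit, differed by -0.20 (standard error 0.12), and the median of the 16 was -0.021.

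**Figure D4:**
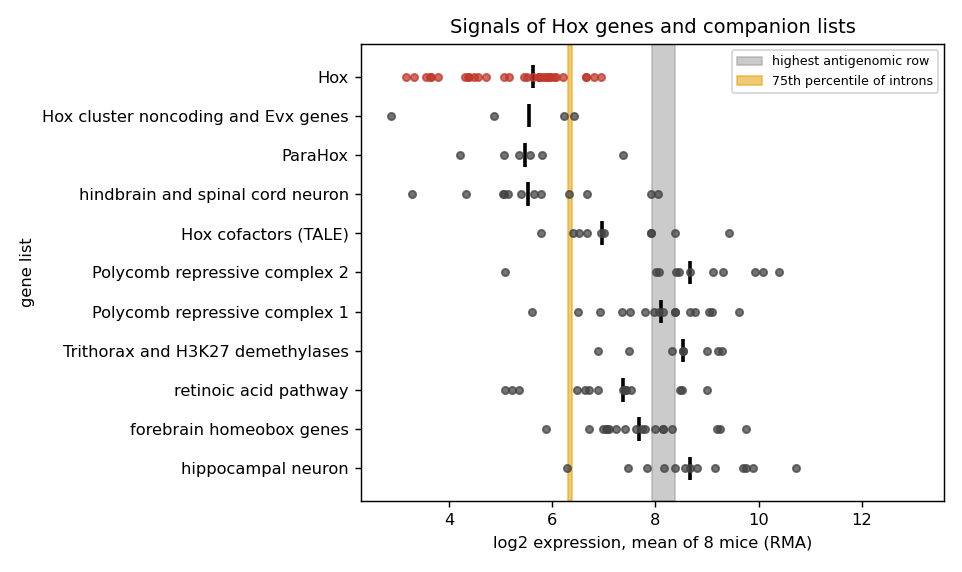
Mean log2 expression over 8 mice (x axis) of each measured gene of the Hox family and of companion lists (y axis); black bars are list medians, and vertical bands the 75th percentile of introns and the brightest antigenomic row. The Hox median is 5.62, and those of Polycomb repressive complexes 2 and 1 are 8.67 and 8.11.

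All 8 genes of the trithorax and H3K27 demethylase list passed the level of the introns, with Kdm6a and Men1 at means of 9.28 and 9.22, and 4 were higher and 4 lower in the impaired mice. Kdm6b, which removes the Polycomb mark, differed by 0.16 (standard error 0.13). Of 10 TALE cofactors, the homeodomain partners of Hox proteins on DNA, 8 passed that level. Meis2 stood at a mean of 9.42 and Pknox2 at 8.37, and their differences were 0.0073 and -0.0015; Pbx3 and Tgif1 differed by -0.085 and 0.084. In the retinoic acid pathway 10 of 15 genes passed, among them the retinol receptor Stra6 at 8.81 to 9.24 and the synthetic enzyme Aldh1a1 at 7.83 to 9.11. Cyp26a1, which degrades retinoic acid, was 5.06 ± 0.099 in the impaired and 5.38 ± 0.11 in the intact mice (SD, n = 4 each), without overlap and at a dim level (-0.32, standard error 0.093; limma, adjusted p = 0.960). Cyp26b1, the related enzyme, differed by -0.18 (standard error 0.098). Of the 15 retinoic acid genes 7 were higher and 8 lower in the impaired mice, with a median difference of -0.045. Homeobox genes of the forebrain passed the level of the introns in 15 of 18 cases, among them Prox1 and Satb1 at means of 9.76 and 9.24. The brightest antigenomic row was passed on all 8 arrays by 3 of the 18, against 24.7% of all genes. Of the 18, 10 were higher and 8 lower in the impaired mice, with a median difference of 0.0047. Emx1 and Dlx5 differed by -0.16 and -0.20 (standard errors 0.11 and 0.13). No gene of the companion and marker lists passed an adjusted p of 0.05 (limma). At an unadjusted p under 0.05, where 4.94% of all genes stood, there were Suz12, Cyp26a1, Gsx2 and Cdx4 of the companion lists. Of the marker lists there were Slc6a5, Tph2, Slc6a2, Alas2, Gata1 and Slc22a6. Among them, 1 of 6 ParaHox, 2 of 12 hindbrain and 1 of 10 meningeal genes were higher. Lower were 1 of 11 genes of Polycomb repressive complex 2, 1 of 15 retinoic acid and 1 of 6 ParaHox genes. So were 1 of 12 hindbrain and 2 of 11 blood cell genes. The other lists held no such gene. Groups without overlap, found for 2.76% of all genes, were those of Suz12, Mtf2, Cyp26a1, Slc6a2 and Alas2, with lower values in the impaired mice. Cdx4 and Wfs1 had higher values without overlap. By list these were 2 of 11 genes of Polycomb repressive complex 2, 1 of 15 retinoic acid and 1 of 6 ParaHox genes. The marker lists held 1 of 13 hippocampal, 1 of 12 hindbrain and 1 of 11 blood cell genes.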

How the data were processed

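The hippocampus of each of 8 mice gave 1 array with 1 colour; groups and replicate numbers came from the sample titles. Amplification started from 1 ng of total RNA, per the labels. The authors deposited log2 values, which RMA produced according to the submitters' processing notes. No version or genome build is stated. RMA normalizes arrays by quantiles and compresses differences of dim genes, and this bears on all Hox genes.

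Of 29129 rows, 19572 had 1 gene symbol in the platform's probe table and 0 had several; 2634 target rows were unnamed. The brightest of several probe sets was kept (55 genes). All 33 Hox genes matched RefSeq (GRCm38.p6) by Entrez identifier. No signal filter was used. Intron and antigenomic rows were recognised by their row names, which also give the antigenomic base composition.

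Differences, impaired minus intact, were tested over all named genes with limma 3.58.1 under R 4.3.3 (moderated two-sided tests from lmFit and eBayes), Benjamini-Hochberg adjusted, threshold 0.05; the script was tested on simulated data. The number of arrays limits the precision. All values of a mouse are given for the 6 highest and 3 lowest Hox means, the 4 smallest p in each direction, genes without overlap and Hoxb7; of companion lists, the 2 smallest p and 2 highest means are named, and Chat, Slc6a2 and the 2 Hox antisense genes were added after their values were seen. Lists were also described without each mouse, chosen after seeing the data. The members and lists were chosen with earlier results of these data known. Array dates and batches were not used here.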

Additional observations from a re-analysis of the deposited data

Results flagged for a closer look

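Within a group of 4 mice, a mouse stood apart from the other 3 for 2 Hox genes of 66 groups examined; chance gives about 1 in 20, or 3.3. Hoxc11 was 3.32 in impaired mouse 1 and 3.77 to 3.83 in the other impaired mice. Hoxc12 was 4.38 in intact mouse 1 and 4.57 to 4.59 in the other intact mice.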

How the results depend on the processing

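The count of Hox genes past an adjusted p of 0.05 was 0 under all 16 alternatives to the limma fit, with a lowest adjusted p of 0.584; over all genes it was 0 in 15 of them and 1 with an intensity trend and robust prior. With the dimmest 25% of genes left out, 3 of the 19 Hox genes then tested had an unadjusted p under 0.05. The count over all genes was then 685 of 14628. The Hox count was 3 of 33 with the trend and 3 with arrays centred on the antigenomic median. Over all 19505 genes it was 903 and 791, against 963 in the main fit. When single mice were left out it was 3 to 5 for the Hox genes and 778 to 1323 over all genes. The median Hox difference was 0.0074 with antigenomic centring, where the median over all genes was -0.050, and 0.015 to 0.082 without single mice. Hox genes without overlap numbered 1 with the dimmest genes left out, which removes Hoxd11 (377 of all 14628 genes then), and 2 to 4 without single mice (896 to 1415 of all 19505, against 538 with all mice). Of 33 Hox genes, 0 were above background by the brightest antigenomic row, also when 4 of 8 arrays or the mean sufficed or a mouse was left out, 27 by the median antigenomic row and 3 by the 75th percentile of introns. Of 250 alternative differences of the 16 Hox genes given by mouse, 235 kept their direction. The other 15 were small: with the plexus covariate Hoxb2 was 0.029 and Hoxb8 -0.018, and with antigenomic centring Hoxb8 was -0.030. When single mice were left out Hoxb2 ran from -0.14 to 0.075, Hoxb3 from -0.0067 to 0.14, Hoxb5 from -0.049 to 0.024 and Hoxb8 from -0.052 to 0.12. Hoxb7 ran from 0.34 to 0.46 and Hoxd11 from -0.67 to -0.48 over the settings; as groups that do not overlap, their direction is fixed when a mouse is left out. Same-numbered mice share only a number (correlations of their deviations -0.001, 0.022, -0.018 and -0.093). With the replicate number as a block 0 Hox genes passed, and the median stayed 0.057. At an unadjusted p under 0.05 there were then 4 of 33 Hox genes, and 946 of all 19505 genes.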
